A study of Rattus norvegicus with 25 samples.

Results

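Genes that mark fat cells were followed in the esophageal epithelium of 25 rats: Adipoq, Fabp4, Lipe, Plin1, Lep, Cfd, Retn, Cidec and Pparg. They were chosen by name as the known genes of the adipocyte, with earlier results of these data known. Their probes were found through the RefSeq accession that the array design gives each probe. Of these 9 genes, 8 had a named probe, among 15443 named genes on the array. No probe was named Plin1, the coat protein of the lipid droplet. The probe of Lep, which encodes leptin, was well above background on 0 of 25 arrays. The other 7 genes were measured and tested among 12343 genes, Lipe with 2 probes and each of the others with 1.

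The animals were male F344 rats in 5 groups of 5, and each rat gave total RNA for 1 single-colour array. Control rats received no carcinogen. The NMBA group received N-nitrosomethylbenzylamine, a nitrosamine that causes tumours of the rat esophagus. The remaining groups received NMBA with a form of vitamin E: alpha-tocopherol, delta-tocopherol or a gamma-enriched tocopherol, and are called alpha, delta and gamma-enriched here. The labels used here give no age, dose, route or time. In these labels rat numbers name animals within a group, and no pairing between groups is stated.

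White adipocytes store triglyceride in a single droplet and release fatty acids by lipolysis. They also secrete hormones, among them adiponectin, leptin, resistin and the complement protease adipsin. Pparg, a nuclear receptor, drives their formation together with C/EBP factors, and both classes of factor bind near many adipocyte genes. In the wall of the esophagus fat cells lie in the outer connective tissue layers rather than in the squamous epithelium, and several of these genes are also active elsewhere: Fabp4 in capillary endothelium and macrophages, Cfd in fibroblasts and macrophages, and Pparg in differentiating epithelia.

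The samples carried the markers of their labelled tissue. Of 10 squamous epithelium genes listed, 7 had a probe, and each of these was well above background on all 25 arrays, Krt13 and Krt4 of the suprabasal layers and Krt5, Krt14 and Krt15 of the basal layer included. Signal was not limited to that tissue: the tested genes of skeletal muscle (11), smooth muscle (7), fibroblast matrix (9) and macrophages (8) were well above background on all 25 arrays too. Between 70.6 and 79.8% of spots were well above background on an array, 0 spots were saturated, and the 75th percentile of the signal lay between 2469 and 6744 intensity units. The arrays sat on 4 slides. Slide 1 held the 5 alpha rats and delta rats 1 to 3, slide 2 held delta rats 4 and 5, the 5 gamma-enriched rats and Control rat 1, and slide 3 held the other Control rats and all NMBA rats but rat 5, which was alone on slide 4.

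Adipoq, Retn and Cidec varied together between rats, as described further on, so the 250 bases before their RefSeq start sites are shown (assembly GRCr8, each in the direction of its gene). RefSeq promoters of this length were at hand for 7 of the 9 genes. Capitals mark matches, on either strand, to the nuclear receptor half-site AGGTCA, its direct repeat AGGTCANAGGTCA, the C/EBP-like TTNCGNAA or the box CCAAT. The Adipoq window is chr11:91240170-91240419 on the minus strand, that of Retn is chr12:6508524-6508773 on the plus strand, and that of Cidec is chr4:148137116-148137365 on the minus strand.
Adipoq: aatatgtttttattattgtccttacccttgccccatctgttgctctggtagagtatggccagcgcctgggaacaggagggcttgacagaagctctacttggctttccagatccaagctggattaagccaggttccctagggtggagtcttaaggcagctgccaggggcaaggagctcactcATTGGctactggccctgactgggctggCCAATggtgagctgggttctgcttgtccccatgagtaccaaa
Retn: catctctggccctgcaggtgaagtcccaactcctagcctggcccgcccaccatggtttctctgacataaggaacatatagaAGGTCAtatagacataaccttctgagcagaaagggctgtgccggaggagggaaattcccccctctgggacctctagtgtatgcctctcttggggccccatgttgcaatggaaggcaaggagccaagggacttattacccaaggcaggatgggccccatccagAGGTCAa
Cidec: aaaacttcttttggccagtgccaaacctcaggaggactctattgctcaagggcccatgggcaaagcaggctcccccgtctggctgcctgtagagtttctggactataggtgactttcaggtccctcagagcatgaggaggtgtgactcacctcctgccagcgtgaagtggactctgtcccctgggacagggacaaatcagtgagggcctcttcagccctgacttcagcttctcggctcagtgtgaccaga

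The 3 windows shared no match. In Adipoq, CCAAT occurred at −69 to −65 on the opposite strand and at −42 to −38 on the gene's own strand, counted from the start site. In Retn, AGGTCA occurred at −169 to −164 and at −7 to −2, both on its own strand. Cidec had no match in this window. CCAAT stood in 34.0% of 33469 RefSeq promoters of the same length, AGGTCA in 14.1%, TTNCGNAA in 2.13% and the direct repeat in 0.0508%, so single matches to CCAAT or AGGTCA are common. These letters are a description of the sequence and no evidence of binding.

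Every level below is the log2 processed signal of a gene's probe minus the 75th percentile of its array, so 0 is the level that 75% of probes stay under. Levels of different probes are not compared with each other.

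The members that encode secreted proteins are described first. Adipoq encodes adiponectin, the circulating protein that raises insulin sensitivity. Its level in Control rats 1 to 5 was −2.39, −6.39, −1.87, −3.68 and −2.18. In NMBA rats it was −5.91, −1.57, −6.69, −3.44 and −3.38. In alpha rats it was −3.25, −5.90, −7.40, −7.02 and −1.36, which spans both the highest and the lowest value of all 25 animals. Delta rats had −2.40, −2.45, −3.67, −6.56 and −1.68. Gamma-enriched rats had −3.34, −5.29, −7.38, −2.69 and −6.80. Every group thus held rats with high and rats with low Adipoq, and all groups overlapped. The probe was well above background on 19 arrays. The 6 others were Control rat 2, NMBA rat 3, alpha rat 3, delta rat 4 and gamma-enriched rats 3 and 5, whose values carry only the sense of a low signal. Among the 19, the highest rat was 50.7-fold above the lowest, and both were alpha rats. That range reaches the background level. The lowest, alpha rat 4 at −7.02, lay below Control rat 2, delta rat 4, NMBA rat 3 and gamma-enriched rat 5, which were not above background.

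Retn encodes resistin, a small cysteine-rich hormone secreted by rodent fat. It was well above background on all 25 arrays. Its level in Control rats 1 to 5 was −2.30, −3.41, −1.05, −2.40 and −1.47. In NMBA rats it was −3.21, −1.23, −3.73, −2.02 and −2.13. The rats low in Adipoq, Control rat 2 and NMBA rats 1 and 3, were again the lowest of their groups. Alpha rats had −1.43, −3.41, −3.96, −4.25 and −0.52, a 13.3-fold range within 1 group that is also the range over all 25 rats. Delta rats had −1.30, −1.77, −3.11, −4.16 and −1.22. Gamma-enriched rats had −2.77, −4.18, −3.58, −1.80 and −4.13. Alpha rat 5 was the highest and alpha rat 4 the lowest of the 25.

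Cfd encodes adipsin, complement factor D. It was well above background on all 25 arrays and had a different pattern. Control rats 1 to 5 had 2.57, 3.53, 3.59, 2.93 and 3.0, and NMBA rats 3.53, 3.63, 3.53, 2.65 and 3.06. Alpha rats had 3.73, 3.43, 2.55, 0.96 and 3.28. Delta rats had 3.07, 2.58, 2.09, 2.38 and 2.70, and gamma-enriched rats 2.14, 2.32, 1.20, 2.71 and 2.42. Alpha rat 4 and gamma-enriched rat 3 stood lowest, and the range over 25 rats was 6.81-fold. The Lep probe, with no array above background, gives no level for leptin in any rat.

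Cidec coats the lipid droplet and promotes the fusion of droplets into 1 large droplet. It was well above background on 11 of 25 arrays, 3 of them Control, 1 NMBA, 1 alpha, 4 delta and 2 gamma-enriched. In Control rats 1 to 5 the signal was −5.05, −8.42, −6.16, −6.89 and −5.60, with rats 2 and 4 not above background. In NMBA rats it was −8.04, −5.52, −7.81, −6.94 and −8.34, with only rat 2 above background. Alpha rats gave −7.37, −8.82, −7.63, −9.00 and −4.41, with only rat 5 above it. Delta rats gave −6.07, −6.18, −6.74, −8.77 and −5.13, with rat 4 not above background. Gamma-enriched rats gave −6.46, −7.84, −7.46, −6.02 and −7.86, with rats 1 and 4 above it. The rats in which Cidec was measured were ones with high Adipoq. Among those 11 the range was 5.04-fold.

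Fabp4, the fatty acid carrier of adipocytes, was well above background in all rats. Control rats 1 to 5 had −0.57, −0.95, −1.19, −0.18 and −0.56, and NMBA rats −1.68, −1.26, −1.58, −0.43 and −2.84. Alpha rats had −1.55, −1.84, −1.81, −2.22 and −0.70, and delta rats −1.01, −0.57, −1.12, −1.98 and −0.60. Gamma-enriched rats had 0.01, −0.15, −3.35, −1.06 and −1.34, a 10.3-fold range that again equals the range over all 25. Alpha rat 5 and delta rat 5 were high for their groups here too, while the highest rat, gamma-enriched rat 1, was not among the highest for Adipoq.

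Lipe encodes hormone-sensitive lipase, which releases fatty acids from stored lipid and is also found in steroid-producing tissue and muscle. Control rats 1 to 5 had −3.47, −3.21, −3.57, −3.56 and −3.76, and NMBA rats −3.87, −3.63, −3.56, −4.33 and −3.96. Alpha rats had −2.92, −3.25, −2.97, −3.83 and −3.00. Delta rats had −3.08, −3.77, −3.87, −3.69 and −3.49, and gamma-enriched rats −3.80, −3.65, −3.61, −3.78 and −3.31. All alpha rats but rat 4 lay above all NMBA rats. The range over 25 rats was 2.66-fold. The second Lipe probe followed the first with r = 0.686 over the 25 rats, computed on deviations from group means.

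Pparg, the receptor that drives adipocyte formation, varied little within a group. Control rats 1 to 5 had −1.98, −2.31, −1.70, −1.90 and −1.83, and alpha rats −1.70, −2.47, −1.65, −1.62 and −1.85. NMBA rats had −1.28, −1.02, −1.51, −1.65 and −1.23. Delta rats had −1.31, −1.29, −1.64, −1.04 and −1.06, and gamma-enriched rats −1.48, −1.47, −0.99, −1.27 and −1.02. Control and alpha rats were the low groups, and the range over 25 rats was 2.79-fold.

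**Figure D1:**
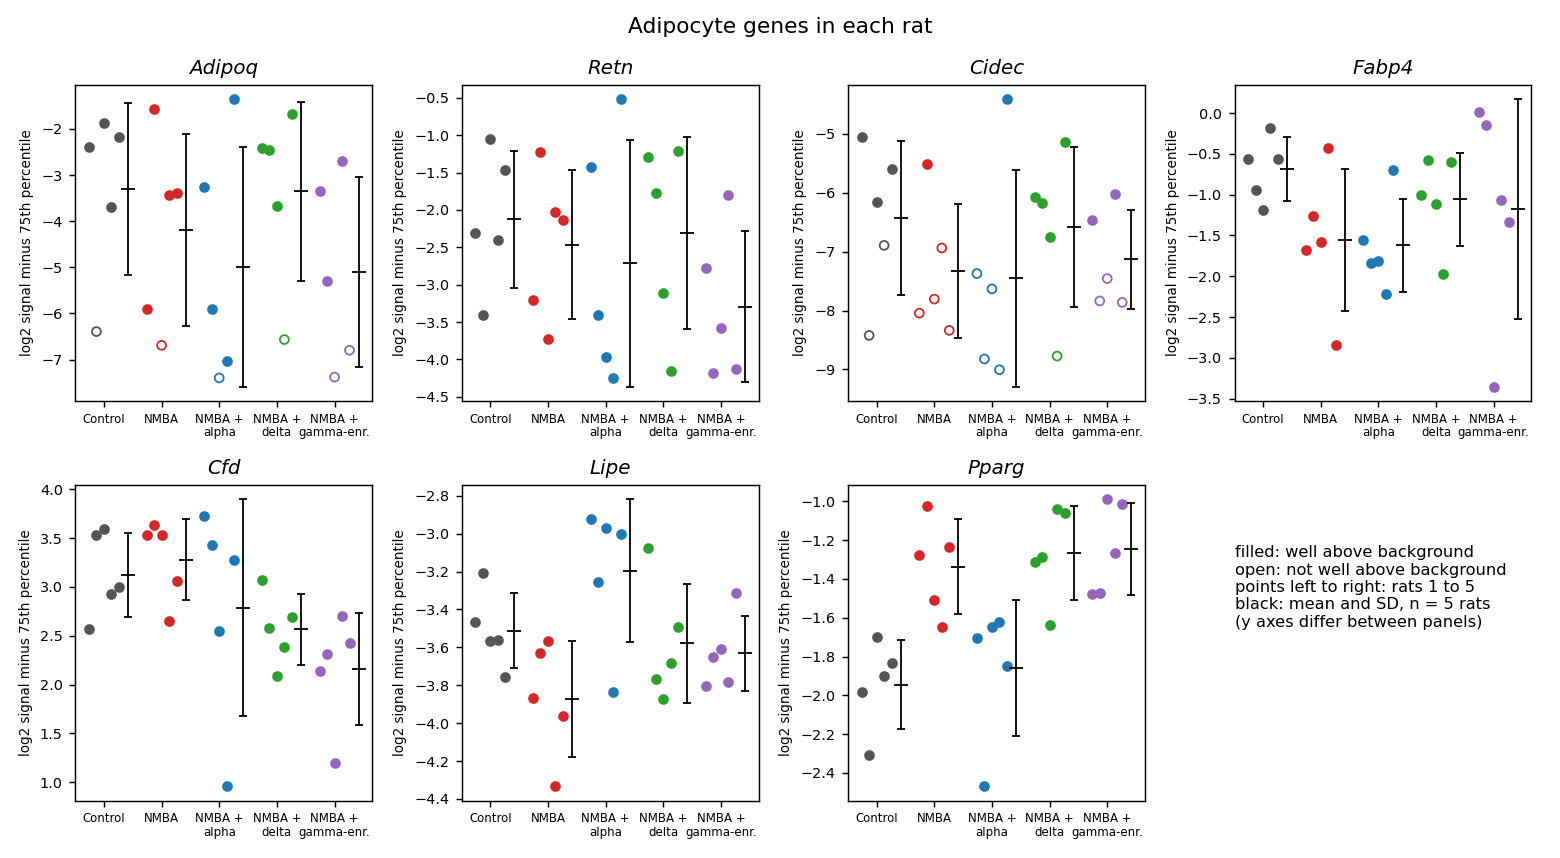
Level of each of the 7 measured adipocyte genes in 25 rats, as log2 signal relative to the 75th percentile of the array (y axis, own scale for each gene), by group (x axis). Each point is 1 rat, open points were not well above background, and the lines give group means. Adipoq, Retn and Cidec have within-group SDs of 2.12, 1.20 and 1.34 log2 units, while Pparg spans 1.48 log2 units over all rats.

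Set against all 12343 genes, the members fell at both ends of the scale of spread. The SD within groups of Adipoq was 2.12 log2 units, and 37 genes had a larger one. It was 1.34 for Cidec (125 genes larger) and 1.20 for Retn (170 larger), against 0.330 for the median gene. Fabp4 with 0.821 was at the 95.0 percentile and Cfd with 0.641 at the 87.5. Lipe with 0.288 and Pparg with 0.265 lay below the median gene, at percentiles 37.7 and 30.1. The share of a gene's variance that lay within groups was 89.6% for Cidec, 87.5% for Retn, 85.9% for Adipoq and 82.2% for Fabp4. It was 67.2% for Cfd, 58.2% for Lipe and 37.5% for Pparg, against 76.0% for the median gene. Pparg was thus the member whose variance lay mostly between groups.

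Which rats were high and low was shared by some members and not by others. Correlations were computed on each rat's deviation from its group mean, so that differences between groups play no part, and p-values came from permutation within groups, adjusted over the 21 pairs. Adipoq and Retn correlated with r = 0.935 (Spearman's rho = 0.932, permutation adjusted p = 0.00014 for both). Without the 2 rats farthest from the Adipoq median r was 0.950, and within slides 1, 2 and 3 it was 0.972, 0.877 and 0.988 over 8 arrays each. Leaving out any 1 rat gave 0.920 to 0.956. Their unadjusted p of 1e-05 is the smallest that 100000 permutations can give.

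Cidec joined this pair, although it was well above background on only 11 arrays and Adipoq on 19. Its r with Adipoq was 0.844 (rho = 0.840, permutation adjusted p = 0.00014 for both), 0.884 without the 2 farthest rats, and 0.842, 0.886 and 0.921 within slides 1 to 3. Its r with Retn was 0.830 (rho = 0.827, permutation adjusted p = 0.00014 for both), 0.770 without the 2 farthest rats, and 0.835, 0.883 and 0.872 within the slides. Alpha rat 5 was the highest of the 25 animals for Adipoq, Retn and Cidec alike, and without it the 3 correlations were 0.920, 0.808 and 0.779. Delta rat 5 ranked among the top 3 for each of these genes.

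Fabp4 followed them less closely. With Adipoq its r was 0.515 (permutation adjusted p = 0.0430; rho = 0.591, adjusted p = 0.0209), 0.468 without the 2 farthest rats, and 0.877, 0.700 and 0.298 within slides 1 to 3. With Cidec it was 0.491 (permutation adjusted p = 0.0253; rho = 0.651, adjusted p = 0.00598), 0.568 without those rats, and 0.927, 0.398 and 0.340 within the slides. The latter r was 0.249 when the background was fitted by normexp. With Retn it was 0.349 (permutation adjusted p = 0.211), which did not pass.

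Lipe, Cfd and Pparg had no correlation with Adipoq that passed over the 25 rats. Their r with Adipoq was −0.01, 0.353 and 0.06 (permutation adjusted p = 0.953, 0.321 and 0.889). The sign differed between slides. Within slides 1 to 3 r was 0.460, −0.312 and −0.448 for Lipe and 0.623, 0.454 and −0.197 for Cfd. For Pparg it was 0.004, −0.583 and 0.696. Lipe and Cfd correlated with each other, with r = 0.656 (permutation adjusted p = 0.0175), but rho was 0.488 (adjusted p = 0.0732) and r within slides 1 to 3 was 0.804, −0.02 and 0.808. Without alpha rat 4, lowest of its group for both genes, it was 0.446. Pparg had no pair that passed, from r = −0.377 with Fabp4 to 0.172 with Retn and Cidec. In all, 6 of 21 pairs passed by r and 5 by rho, and 17 had a positive r.

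**Figure D2:**
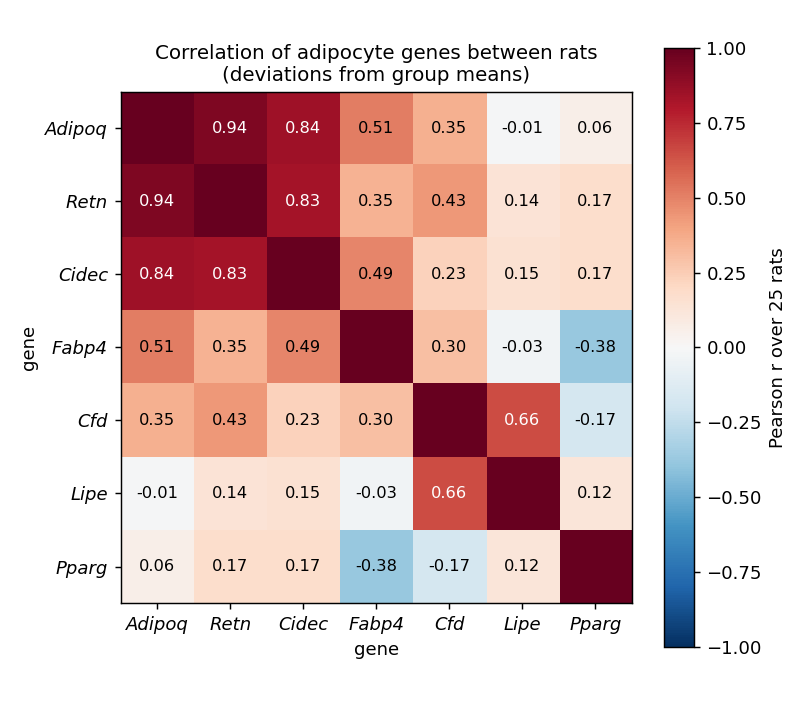
Pearson r between each pair of the 7 measured genes over 25 rats, computed on deviations from group means, as a colour from −1 (blue) to 1 (red) with the value printed. The block of Adipoq, Retn and Cidec holds r of 0.83 to 0.94, while Lipe, Cfd and Pparg lie near 0 or below 0.5 with that block.

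The level of Adipoq had a gap in its distribution: 10 rats lay at −5.29 or lower and 15 at −3.68 or higher, with nothing in 1.61 log2 units between, where the next widest gap was 0.611. The 10 low rats were 1 Control, 2 NMBA, 3 alpha, 1 delta and 3 gamma-enriched, and lay on slides 1, 2 and 3 (3, 4 and 3 rats of 8 each). Adipoq was well above background in 4 of these 10 and Cidec in 0 of 10, against 15 and 11 of the 15 others. Among the 15 the correlation of Adipoq with Retn was 0.823 and with Cidec 0.813. Among the 10 low rats these were 0.199 and −0.22. Retn was well above background in all of these rats, Adipoq in 4 and Cidec in 0. Fabp4 went the other way, with r = 0.07 to Adipoq among the 15 (rho = −0.186) and 0.709 among the 10 (rho = 0.515). These correlations were computed on levels, not on deviations from group means. The split was made on Adipoq itself, so its range and detection on each side are not independent of the split. These values are given as a description, with no test.

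**Figure D3:**
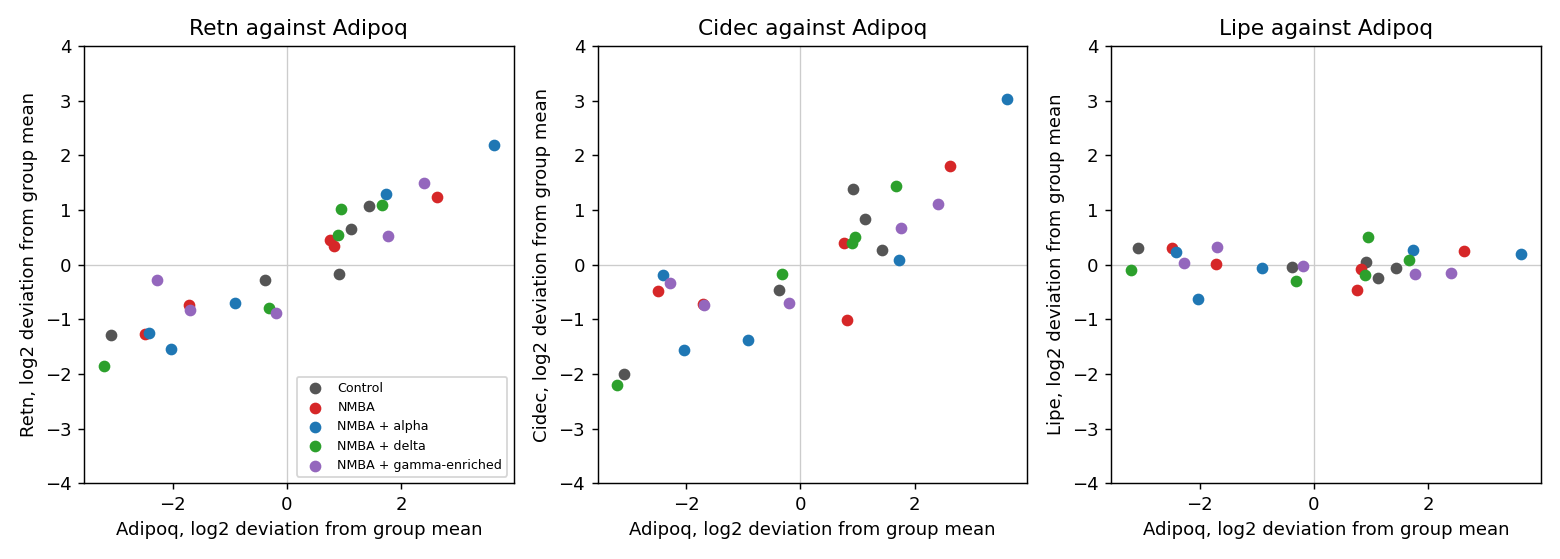
Deviation from the group mean (log2 units) of Retn, Cidec and Lipe (y axes) against that of Adipoq (x axis), 1 point per rat, coloured by group. Retn and Cidec climb with Adipoq across rats of every group (r = 0.935 and 0.844), and Lipe is flat (r = −0.01).

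As 1 marker of fat content, these genes did not behave alike. As a description, each gene was set against the mean of the other members over the 25 rats, and its r was ranked among 12337 genes. Members were averaged as log2 deviations from group means without scaling, so the widely spread Adipoq, Cidec and Retn weigh most. Adipoq (r = 0.889) and Retn (r = 0.904) each ranked 1, and Cidec (r = 0.840) ranked 7. Fabp4 (r = 0.467) ranked 760, Cfd (0.396) ranked 1036, Lipe (0.147) ranked 4125 and Pparg (0.04) ranked 6081. In bulk tissue, fewer fat cells and less of these RNAs per cell cannot be told apart. The mean of the 7 genes had r = 0.124 with the share of spots well above background and −0.07 with the log2 of the array's 75th percentile signal. The r of this mean was 0.958 with Adipoq, 0.941 with Retn and 0.907 with Cidec. It was 0.585 with Fabp4, 0.496 with Cfd, 0.200 with Lipe and 0.0853 with Pparg, so the mean used below mostly follows the first 3.

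Genes outside the list followed the same rats. Over 12336 other tested genes the median r with the member mean was 0.04, 654 were above 0.5, 79 above 0.7 and 14 above 0.8. The closest was Myoc, which encodes the secreted glycoprotein myocilin (r = 0.891, rho = 0.916, 0.870 without the 2 farthest rats, and 0.934, 0.897 and 0.885 within slides 1 to 3). Its level ran from −6.66 to −0.66, with a median of −2.80. Mrap, the accessory protein of the melanocortin receptors that adrenal and fat cells carry, was next (r = 0.871, rho = 0.863, within slides 0.919, 0.876 and 0.855), although it was well above background on only 16 arrays. Thrsp, the lipogenic Spot 14 protein, had r = 0.830 and 0.756, 0.875 and 0.946 within the slides.

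Also among the 10 closest genes were Cldn19, a tight junction claudin (r = 0.847), Phactr3, a regulator of protein phosphatase and actin (0.832), Reln, the matrix protein reelin (0.829), Capn6, a calpain without protease activity (0.820), Ttyh1 (0.809) and Gpr85, an orphan receptor (0.809). Within slides 1, 2 and 3 the lowest r among these 6 was 0.925, 0.716 and 0.589. Of the 10, Phactr3 was called in 1 comparison between groups, though it was well above background on only 19 arrays. Its level was lower in NMBA than in Control by −2.15 ± 0.540 (log2 ± SE, limma adjusted p = 0.0395). The other 9 were called in none of 10 comparisons.

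Marker lists of other functions and cell types were set against the member mean in the same way. Nerve and Schwann cell genes stood highest: the mean of 8 tested genes had r = 0.847 (rho = 0.830), 0.810 without the 2 farthest rats, and 0.948, 0.851 and 0.726 within slides 1 to 3. The glial calcium-binding protein S100b had r = 0.733 and the Schwann cell transcription factor Sox10 0.702. Mag had 0.636, Prx 0.615 and Ngfr 0.472, whereas Mbp was negative at −0.363, and the median gene was at 0.669. Taken singly, Adipoq had r = 0.795 with the nerve mean (permutation adjusted p = 0.000455 over 91 relations; rho = 0.795), Retn 0.819 (0.000455; rho = 0.780) and Cidec 0.716 (0.0146; rho = 0.652). S100b and Sox10 were well above background on all 25 arrays, Mag on 24 and Prx on only 14. Members and lists were chosen with earlier results of these data known, so these p-values only describe the data. What part nerve tissue has in the adipocyte values was not tested.

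Other adipocyte pathways followed more loosely and unevenly. The mean of 16 genes of lipid uptake and storage had r = 0.600 with the member mean, 0.473 without the 2 farthest rats, and 0.901, 0.507 and 0.141 within slides 1 to 3. Aqp7, the glycerol channel of fat cells, led them at 0.751 and Gpam, the first enzyme of glycerolipid synthesis, was lowest at −0.315. Aqp7 was well above background on only 11 arrays. The 5 lipolysis genes gave 0.549 (0.387 without those rats), from Mgll at 0.554 to Pnpla2, the adipose triglyceride lipase, at −0.373. The 6 adipogenic regulators gave 0.210, from Cebpd at 0.237 to Cebpa at 0.03, and 5 hormone receptors 0.246, from Insr at 0.465 to Adipor2 at −0.210, but without the 2 farthest rats these list means gave 0.06 and −0.01. Slide 3 differed from slide 1 for all 4 of these lists: r there was 0.141, −0.254, −0.244 and −0.04, against 0.901, 0.758, 0.657 and 0.602 in slide 1.

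Of the other tissue markers, 9 endothelial genes gave r = 0.505, from Cldn5 at 0.689 to Esam at 0.187, and 9 fibroblast matrix genes gave 0.416 with 0.174 without the 2 farthest rats and −0.212 within slide 3. The 8 macrophage genes gave 0.417, 11 skeletal muscle genes 0.274 and 7 smooth muscle genes 0.162. Without the 2 farthest rats these were 0.189, 0.197 and −0.07, and within slide 3 they were −0.106, −0.432 and −0.524. The 7 squamous epithelium genes gave −0.185, with the adhesion protein Cdh1 lowest at −0.451 and Krt13 highest at 0.03. For endothelium, fibroblasts, macrophages and skeletal muscle every tested gene had a positive r, against 6813 of the 12336 genes that are no member.

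**Figure D4:**
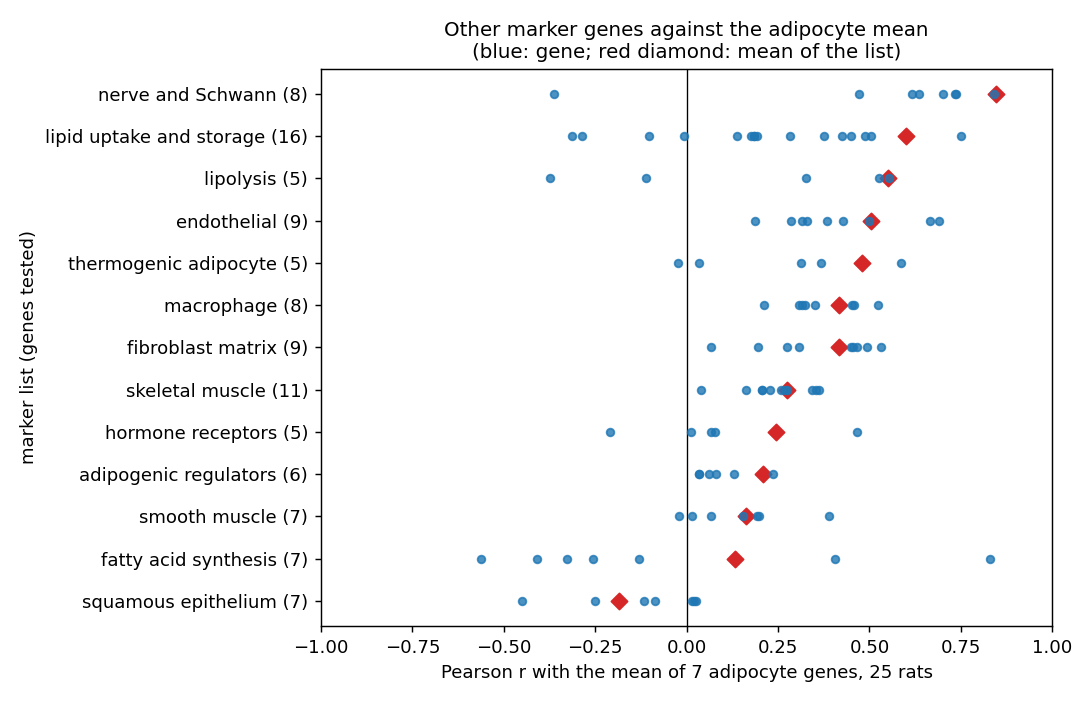
Pearson r with the mean of 7 adipocyte genes over 25 rats (x axis, deviations from group means) for 13 marker lists (y axis, number of tested genes in brackets). Blue points are genes and red diamonds are list means. The mean of the 7 genes is unscaled, so Adipoq, Retn and Cidec weigh most in it. The nerve and Schwann mean lies at 0.847, above each other list, and the squamous mean lies at −0.185.

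Members other than Adipoq, Retn and Cidec had relations of their own. Over 91 relations of 7 members with 13 lists, 13 passed by r and 11 by rho. Since members and lists were chosen with earlier results known, these p-values and counts only describe the data. Cfd accounted for 8 of the 13. It followed the fibroblast matrix mean with r = 0.821 (permutation adjusted p = 0.00091; rho = 0.812), 0.709 without the 2 farthest rats and 0.982, 0.918 and 0.786 within slides 1 to 3, and the hormone receptor mean with r = 0.734 (permutation adjusted p = 0.000455), 0.838, 0.830 and 0.730 within slides. Its r of 0.857 with the lipolysis mean (permutation adjusted p = 0.000455) was −0.01 within slide 3, and its r of 0.640 with lipid uptake and storage (permutation adjusted p = 0.0477) was −0.792 there. With fatty acid synthesis it was negative, at −0.588 (permutation adjusted p = 0.0477; rho adjusted p = 0.0571). Its other 3 were macrophage (r = 0.694), endothelial (0.663, and −0.255 within slide 3) and smooth muscle genes (0.659, and −0.02 within slide 3).

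Fabp4 followed lipid uptake and storage with r = 0.774 (permutation adjusted p = 0.00243; rho = 0.773), 0.642 without the 2 farthest rats and 0.813, 0.806 and 0.807 within slides. It followed the endothelial mean with r = 0.743 (permutation adjusted p = 0.0383), although rho was 0.498 (adjusted p = 0.124) and r without the 2 farthest rats was 0.435. Lipe passed with 0 of 13 lists by r or rho, and its one unadjusted permutation p under 0.05 was with the fibroblast matrix mean (r = 0.458, p = 0.0358; rho p = 0.0226). Pparg passed with 0 by r and 1 by rho, the squamous epithelium mean (rho = 0.593, permutation adjusted p = 0.0328; r = 0.523, adjusted p = 0.0564). That r was 0.589 without the 2 farthest rats and 0.536, 0.699 and 0.503 within slides 1 to 3. Adipoq, Retn and Cidec passed with the nerve list and no other.

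The design asks what NMBA changed and what each tocopherol changed in NMBA-treated rats. Values are differences of group means with limma's standard error, 5 rats a group, and a gene was called at an adjusted p under 0.05. Signals at background entered as they were, which concerns Adipoq and Cidec. Control and NMBA samples are shared between comparisons, so these are not independent of each other. The NMBA group shared no slide with any tocopherol group, so slide and treatment cannot be told apart in those comparisons. Alpha rats likewise shared no slide with Control or gamma-enriched rats.

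In NMBA against Control, 0 of 7 members were called, while 1.6% of all genes were called. At an unadjusted limma p under 0.05 stood 1 member, against 13.1% of all genes. Adipoq had a mean of −3.30 ± 1.86 (SD) in Control and −4.20 ± 2.08 in NMBA, a difference of −0.89 ± 1.25 (SE). Cidec differed by −0.90 ± 0.789, Fabp4 by −0.87 ± 0.488, Lipe by −0.36 ± 0.183, Retn by −0.34 ± 0.709 and Cfd by 0.16 ± 0.383. The median of the 7 was −0.36, against 0.07 over all genes. Leaving out 1 rat moved Adipoq between −1.67 and −0.27 and Retn between −0.66 and −0.02, and Cidec was −0.18 with a normexp background and −0.31 within slide 3. With standard errors of this size for Adipoq and Cidec, a difference of 1 log2 unit could not be told from 0.

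Pparg was the exception in size relative to its spread. It was −1.95 ± 0.228 (SD) in Control and −1.34 ± 0.244 in NMBA, higher by 0.61 ± 0.171 (SE, limma adjusted p = 0.0789), and no NMBA rat lay as low as any Control rat. Such separation held for 3.97% of all genes. The difference within slide 3, which held 4 rats of each group, was 0.57 (limma adjusted p = 0.262). It passed when NMBA rat 4 was left out (0.69, adjusted p = 0.0405). Delta rats were above Control by 0.68 ± 0.171 (limma adjusted p = 0.110) and gamma-enriched rats by 0.70 ± 0.171 (adjusted p = 0.0619), both again without overlap, which held for 3.3% and 3.35% of all genes in these comparisons. Alpha rats were 0.09 ± 0.171 from Control (limma adjusted p = 0.871) and −0.52 ± 0.171 from NMBA (adjusted p = 0.0904). The latter difference passed with a normexp background (−0.60, adjusted p = 0.0482). With slide as a fixed block it was −0.08 ± 0.435 (limma adjusted p = 0.947). In order of mean level, gamma-enriched (−1.24 ± 0.238 SD), delta (−1.27 ± 0.242) and NMBA (−1.34 ± 0.244) differed by less than their spread, as did alpha (−1.86 ± 0.352) and Control (−1.95 ± 0.228). None of these Pparg differences was called in the fit of all 25 arrays. The difference from Control passed for gamma-enriched rats with slide as a random block (adjusted p = 0.0303) and without Control rat 1 (0.0288). With slide as a fixed block it did not pass (0.74 ± 0.299, limma adjusted p = 0.991).

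In alpha against NMBA, 1 of 7 members was called, and 3.77% of all genes were, with 1.23% of all genes called higher. That gene was Lipe, at −3.20 ± 0.379 (SD) in alpha and −3.87 ± 0.306 in NMBA, a rise of 0.68 ± 0.183 (SE, limma adjusted p = 0.0415) or 1.60-fold. The groups overlapped through alpha rat 4. Its second probe differed by 0.91 in the same direction, and the mean of both probes by 0.79 (adjusted p = 0.0159). The call was lost without any of 8 single rats (alpha rats 1, 2, 3 and 5 and NMBA rats 1, 2, 4 and 5, limma adjusted p from 0.0538 to 0.0923). It was also lost with a normexp background (0.46, adjusted p = 0.122) and with slide as a fixed block (0.58, adjusted p = 0.621), where the alpha and NMBA groups shared no slide. Adipoq differed by −0.79 ± 1.25, Cfd by −0.49 ± 0.383, Retn by −0.25 ± 0.709, Cidec by −0.12 ± 0.789 and Fabp4 by −0.07 ± 0.488.

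In delta against NMBA, 0 of 7 members were called, against 3.12% of all genes called. At an unadjusted limma p under 0.05 stood 0 members, against 20.4% of all genes. Adipoq differed by 0.84 ± 1.25, Cidec by 0.75 ± 0.789, Fabp4 by 0.50 ± 0.488, Lipe by 0.29 ± 0.183, Retn by 0.16 ± 0.709, Pparg by 0.07 ± 0.171 and Cfd by −0.72 ± 0.383. Of these, 6 of 7 were positive, and none passed the test. With slide as a fixed block Adipoq was −0.86 and Cidec −1.60, with the sign turned. In gamma-enriched against NMBA 0 of 7 were called, although 9.74% of all genes were. At an unadjusted limma p under 0.05 stood 1 member, against 27.2% of all genes. Cfd was −1.12 ± 0.383 from NMBA (limma adjusted p = 0.0628). It passed without NMBA rat 4 (−1.28, adjusted p = 0.0383), with slide as a random block (−1.15, adjusted p = 0.0356) and when only these 2 groups were fitted (adjusted p = 0.0371). The slide correlation in the random-block fit was −0.0252. With slide as a fixed block Cfd did not pass (−0.48 ± 0.824, limma adjusted p = 0.998). The others differed by −0.90 ± 1.25 (Adipoq), −0.83 ± 0.709 (Retn), 0.38 ± 0.488 (Fabp4), 0.24 ± 0.183 (Lipe), 0.20 ± 0.789 (Cidec) and 0.09 ± 0.171 (Pparg).

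**Figure D5:**
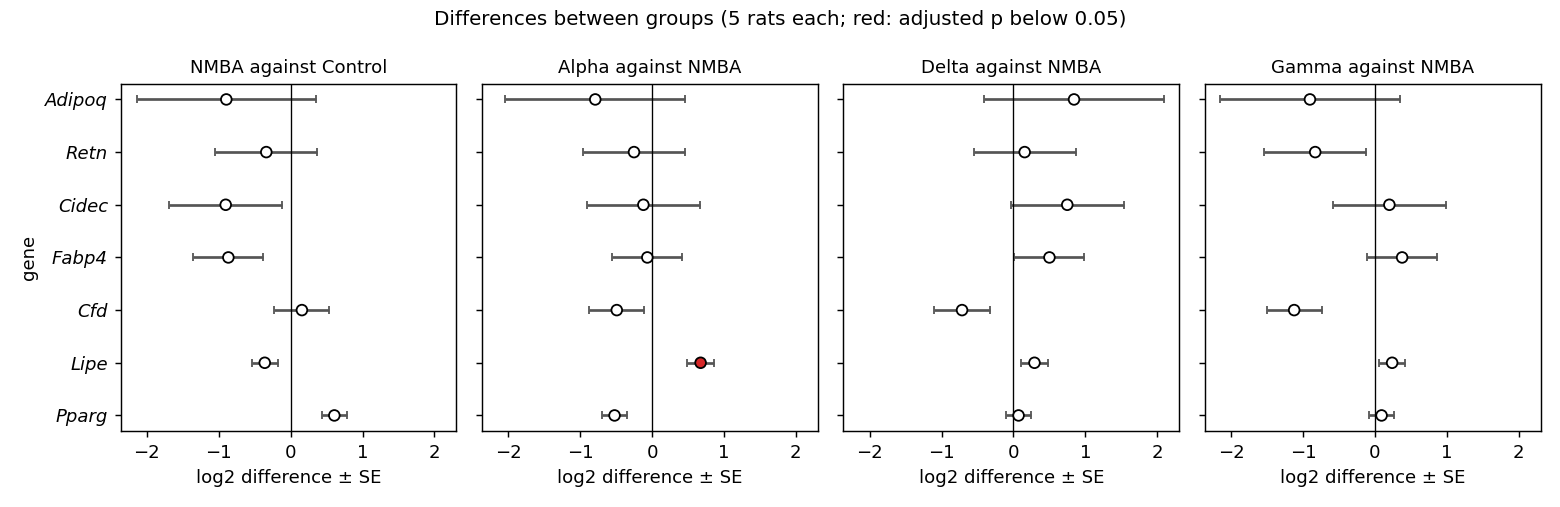
Difference between groups (log2, x axis) with limma's standard error for the 7 genes (y axis) in NMBA against Control and in each tocopherol group against NMBA, 5 rats a group. The filled red point is the only call, Lipe in alpha against NMBA at 0.68. The bars of Adipoq extend 1.25 log2 units to each side.

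The remaining 6 comparisons called 0 of 7 members each. The numbers at an unadjusted limma p under 0.05 were 0 for alpha against Control, 1 for delta against Control, 2 for gamma-enriched against Control, 2 for delta against alpha, 2 for gamma-enriched against alpha and 0 for gamma-enriched against delta. The shares of all genes at such an unadjusted p were 13.6%, 10.5%, 18.6%, 4.85%, 15.2% and 4.13%, in the same order. The shares of all genes called were 0.689%, 0.162%, 0.559%, 0%, 1.69% and 0%. The widest of the differences were in Adipoq, with −1.80 ± 1.25 for gamma-enriched against Control, −1.75 ± 1.25 for gamma-enriched against delta and −1.68 ± 1.25 for alpha against Control. Pparg was higher in gamma-enriched than in alpha rats by 0.61 ± 0.171 without overlap (limma adjusted p = 0.0729), and 3.23% of all genes did not overlap. With slide as a fixed block the Pparg difference was 0.25 ± 0.303 (limma adjusted p = 0.766). Without alpha rat 4 this comparison called 3 members, Lipe (−0.60), Cfd (−1.09) and Pparg (0.67), with limma adjusted p = 0.0449, 0.0373 and 0.0356.

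The group means were ordered alike in Adipoq and Retn and otherwise in the remaining members. Adipoq ranked Control (−3.30 ± 1.86 SD), delta (−3.35 ± 1.93), NMBA (−4.20 ± 2.08), alpha (−4.99 ± 2.60) and gamma-enriched (−5.10 ± 2.06), and each neighbour was closer than the spread. Retn ranked Control (−2.13 ± 0.915), delta (−2.31 ± 1.28), NMBA (−2.46 ± 0.997), alpha (−2.71 ± 1.65) and gamma-enriched (−3.29 ± 1.01), the same order and again within the spread. Cidec ranked Control (−6.42 ± 1.31), delta (−6.58 ± 1.36), gamma-enriched (−7.13 ± 0.841), NMBA (−7.33 ± 1.14) and alpha (−7.45 ± 1.84). Fabp4 ranked Control (−0.69 ± 0.391), delta (−1.06 ± 0.568), gamma-enriched (−1.18 ± 1.35), NMBA (−1.56 ± 0.870) and alpha (−1.62 ± 0.569). Cfd ranked NMBA (3.28 ± 0.418), Control (3.12 ± 0.432), alpha (2.79 ± 1.11), delta (2.56 ± 0.365) and gamma-enriched (2.16 ± 0.572). Lipe ranked alpha (−3.20 ± 0.379), Control (−3.51 ± 0.200), delta (−3.58 ± 0.313), gamma-enriched (−3.63 ± 0.198) and NMBA (−3.87 ± 0.306), and here too neighbours were closer than the wider SD of the pair.

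Genes of the wider adipocyte pathways are read against the shares of all genes. Called were 1.6% in NMBA against Control and 3.77%, 3.12% and 9.74% in alpha, delta and gamma-enriched against NMBA. At an unadjusted limma p under 0.05 these shares were 13.1%, 18.4%, 20.4% and 27.2%. Slide and treatment cannot be told apart in the comparisons of tocopherol groups against NMBA, which shared no slide. Of 16 genes of lipid uptake and storage, 1 was called in NMBA against Control. In alpha, delta and gamma-enriched against NMBA 0 were called, with 5, 3 and 2 at an unadjusted limma p under 0.05. That gene, Gpam, rose by 0.61 ± 0.126 with NMBA (limma adjusted p = 0.0108), from −3.12 to −2.51, and was also above Control in gamma-enriched rats by 0.68 ± 0.126 (adjusted p = 0.0122). Of 6 adipogenic regulators, 0 were called in NMBA against Control, where Pparg stood higher, and 5 had an unadjusted limma p under 0.05, against 13.1% of all genes. Of these 5, 4 were higher and Klf15 was lower, at −0.92 ± 0.283 (limma adjusted p = 0.118). Among the regulators 1 was called in gamma-enriched against NMBA: Ebf2, an early factor of the brown fat lineage, was lower by −0.89 ± 0.284 (limma adjusted p = 0.0483). Ebf2 was well above background on 21 arrays. Of 5 hormone receptors, the insulin receptor Insr was lower than NMBA in delta rats by −0.81 ± 0.205 and in gamma-enriched rats by −0.93 ± 0.205 (limma adjusted p = 0.0361 and 0.00731). Of 5 thermogenic genes, Elovl3, an elongase of very long fatty acids, was lower in gamma-enriched rats than in NMBA rats by −0.83 ± 0.261 (limma adjusted p = 0.0471). Of 5 lipolysis and 7 fatty acid synthesis genes, 0 were called in NMBA against Control or in a tocopherol group against NMBA, with an unadjusted limma p under 0.05 for 1 fatty acid synthesis gene in gamma-enriched rats and for 0 in the rest.

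The lists of other cell types are set beside these values. Of 8 nerve and Schwann genes 0 were called in NMBA against Control (1 at an unadjusted limma p under 0.05), with a median of −0.77, and 7 of the 8 were negative. Of 9 fibroblast matrix genes 0 were called there (4 at an unadjusted p under 0.05), with a median of −0.44. The share of all genes at such an unadjusted p in NMBA against Control was 13.1%. In gamma-enriched against NMBA, where Cfd stood lower, Dcn of the fibroblast matrix was lower by −0.77 ± 0.221 and the macrophage gene C1qa by −0.93 ± 0.281 (limma adjusted p = 0.0299 and 0.0385). The medians there were −0.33 for the 9 fibroblast matrix genes and −0.39 for the 8 macrophage genes, against −0.13 over all genes, and their part in the Cfd value was not tested. Of 7 squamous epithelium genes, Krt14, Krt4 and Krt13 were lower in gamma-enriched than in NMBA rats by −0.77 ± 0.171, −0.84 ± 0.156 and −0.84 ± 0.193 (limma adjusted p = 0.00768, 0.00356 and 0.00905). Krt4 was lower in delta rats by −0.71 ± 0.156 and Krt5 in alpha rats by −0.59 ± 0.149 (limma adjusted p = 0.0236 and 0.0301). The shares of all genes called as given above, 9.74%, 3.12% and 3.77%, stand beside these calls. Here too, no tocopherol group shared a slide with the NMBA group. In NMBA against Control, where Pparg was at 0.61, 0 squamous genes were called, 3 of 7 had an unadjusted limma p under 0.05 and 6 of 7 were positive, with Krt5 at 0.43 ± 0.149 and Krt14 at 0.41 ± 0.171. Their part in the Pparg value was not tested.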

How the data were processed

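Each rat had 1 single-colour Agilent array. Per the file headers, the authors' deposited scanner files hold fluorescence intensity that Feature Extraction 11.5.1.1 background-subtracted; the submitters' processing notes name version 10.7. The authors' deposited value table is on a log2 scale and matched the values used here (lowest r over arrays 1, as rounded).

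Outlier spots were dropped, a probe's log2 processed signals averaged, and each array's 75th percentile subtracted. Of 30367 probes, 18355 matched 1 RefSeq symbol, 12012 none and 0 several. Of the same 30367 probes, 70 were dropped because all their spots were outliers on at least 1 array. Probes well above background on at least 5 arrays were kept, and each gene took its brightest. Group means were fitted to 25 arrays with limma 3.58.1, with Benjamini-Hochberg adjustment within each of 10 comparisons. The fit was tested on simulated data. For the normexp alternative the planned mean signal was replaced by the median signal, the column used here. Columns of other samples numbered 0.

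The members and lists were chosen with earlier results of these data known. Named were all members, called genes of the lists (up to 4), the 10 genes most like the member mean and each list's extremes. Other genes were named after their values were seen. Genes withheld for evaluation are not reported here by name.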

Additional observations from a re-analysis of the deposited data

Results flagged for a closer look

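Of 35 groups of 5 rats, 7 genes in 5 groups, 1 held a rat far from the others: Pparg in alpha rat 2, at −2.47, where the nearest alpha rat was at −1.85. That gap made up 0.731 of the group's range, against a critical value of 0.71. Chance marks about 1 in 20 groups in this way.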

How the results depend on the processing

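Over the alternatives run, 678 values of the counts of called members and the list correlations stayed close to their main value and 25 did not. The member called in the main analysis kept its sign in all 21 alternatives. Of 1450 values of differences that were not called, 68 had the other sign. The list correlations within slides and without 2 rats, several of the other sign, stand beside them in the text above. Without a detection filter, 3 members were called in alpha against NMBA (Lipe, Lep and Pparg), 1 in delta against NMBA (Lep) and 2 in gamma-enriched against NMBA (Lep and Cfd), although Lep was above background on 0 arrays. With slide as a fixed block, which also leaves NMBA rat 5 as the only array of its slide, and with only the 2 groups fitted, 0 were called in alpha against NMBA. In gamma-enriched against NMBA, 1 (Cfd) was called with normexp, with slide as a random block and with only the 2 groups. With slide as a random block 1 (Pparg) was called in gamma-enriched against Control and 1 (Pparg) against alpha. None of these Cfd and Pparg differences passed with slide as a fixed block. Leaving out 1 rat gave 0 to 1 calls in NMBA against Control (1 without NMBA rat 4), alpha against NMBA, gamma-enriched against NMBA and gamma-enriched against Control, and 0 to 3 in gamma-enriched against alpha. With genes above background on all 25 arrays, which removes Adipoq and Cidec, the member mean's r was 0.735 with lipolysis, 0.641 with fibroblast matrix and 0.699 with endothelial genes. The cause of the other changes was not tested.

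No pairing of samples by rat number was seen. Arrays of the same number had a median correlation of −0.05 over 50 pairs, against 0.00934 over 200 pairs of other numbers. Only 1 of 25 arrays matched its own number best. What else the numbers may mark was not tested. With the replicate number as a block, 1 member was called in alpha against NMBA, Lipe (adjusted p = 0.0436). Adipoq, with 19 arrays above background, and Cidec, with 11, are limited by low signal. The 75th percentile over spots and the fits within slides were added after seeing the data.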

Other observations

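Fatty acid synthesis genes split in how they followed the adipocyte mean between rats. Thrsp had r = 0.830 and Acly, the ATP citrate lyase, had −0.562, and only 2 of 7 tested genes were positive, with a median of −0.255. The list mean had r = −0.611 within slide 1 and 0.608 and 0.701 within slides 2 and 3. Thermogenic genes gave a list mean of 0.481, led by the deiodinase Dio2 at 0.585, with Cidea at −0.02 and within-slide values of 0.948, 0.203 and −0.139. Dio2 was well above background on only 15 arrays.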
